A study of Mus musculus with 9 samples.

Results

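The 8 genes described here encode receptors that natural killer (NK) cells share with antigen-experienced CD8+ T cells: Klrk1, Klrd1, Klrc1, Klrc2, Klrg1, Klre1 and Klrb1c, which are killer cell lectin-like receptors, and Cd160, an immunoglobulin-type receptor with a similar distribution. They were chosen by symbol from the 23366 gene symbols of the deposited expression table. All 8 were present, and all 8 passed the filter on low values (a mean of at least 1 FPKM, fragments per kilobase of transcript scaled to the depth of the library, over all libraries) among 10374 genes in all. Expression was measured by RNA sequencing in bulk CD8+ T cells isolated from B16F10 tumours, a transplantable melanoma, in C57BL/6 mice. The WT group had 5 libraries from wild type mice and the IL27ra KO group had 4 libraries from mice without the interleukin-27 receptor alpha chain. Mice of both groups carried the tumour, and no drug or other treatment is named in the labels. The sources used here do not give age, the form of the knockout allele or the way the T cells were isolated. The series asks which genes of tumour CD8+ T cells depend on IL-27. Whether each library stands for its own mouse is not said in the labels, so a p-value here speaks only to the variation among libraries, some of which may be technical.

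CD94, the product of Klrd1, pairs with NKG2A (Klrc1) to form an inhibitory receptor, or with NKG2C (Klrc2) to form an activating receptor that signals through the adaptor DAP12 (Tyrobp). Both pairs bind the nonclassical class I molecule Qa-1b (H2-T23). NKG2D (Klrk1) binds stress-induced ligands and signals through DAP10 (Hcst), while KLRG1 binds cadherins and marks late effector cells. CD160 binds the tumour necrosis factor receptor family member HVEM (Tnfrsf14). On CD8+ T cells these receptors appear after activation and adjust the response to antigen.

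Il27ra, the gene targeted in the knockout, was read first as a check of the labels. Its FPKM was 25.74, 5.14, 15.24, 14.43 and 15.79 for WT replicates 1 to 5, whereas IL27ra KO replicates 1 to 4 had 4.09, 6.50, 5.62 and 7.80. The groups overlapped because the library labelled WT replicate 2 lay inside the knockout range. The log2 difference, IL27ra KO minus WT, was -1.10 (SE 0.34, adjusted p = 0.0996, limma), and -1.42 with an adjusted p of 0.0035 without the library labelled WT replicate 2. The part of Il27ra that the knockout removes is not named in the labels, so reads that remain in the knockout cannot be placed.

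The groups also differed in markers of other cell types. All 15 of 15 macrophage and monocyte markers were higher in IL27ra KO, with sums of 69.57 to 340.03 FPKM in WT and 447.63 to 1576.23 FPKM in IL27ra KO. All 12 CD8 T cell identity genes, such as Cd3e and Cd8a, had log2 differences below 0, with 2 past the threshold and sums of 1030.5 to 1641.79 FPKM in WT against 479.1 to 1267.51 FPKM in IL27ra KO. Of 7 melanoma markers 0 passed (2 at an unadjusted p under 0.05, limma), with sums of 354.45 to 1162.05 FPKM in WT and 541.47 to 1274.06 FPKM in IL27ra KO. The CD4 T cell, B cell, and NKT and gamma delta T cell marker sums were at most 6.28, 3.58 and 2.21 FPKM in any library, and 0 of their 3 tested genes passed (2 at an unadjusted p under 0.05). For NKT and gamma delta T cells this rests on the 3 of 8 markers that matched a symbol, none of which reached the filter. IL27ra KO replicate 4 stood apart from the other 3 knockout libraries: its mean log2 level of the identity genes was 6.46, against 5.14 to 5.62 in those 3 and 6.15 to 6.79 in WT. The spacing of low values implied 1730000 to 4090000 fragments per library, so 1 fragment on a transcript of 1 kb was worth 0.245 to 0.578 FPKM. The values were TMM-normalized, so these numbers include that scaling and may differ from the fragments sequenced. In bulk RNA, fewer cells of a type and less RNA per cell cannot be told apart.

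Of the 8 receptor genes, Klrc2 was lower in IL27ra KO and the other 7 did not pass the test. This is 1 of 8 genes called lower, against 1.11% of all genes tested, and 4.24% of all genes were called in either direction. The median log2 difference of the 8 genes was -0.50, beside 0.02 for all genes tested, and 7 of the 8 differences were below 0. None of the 8 genes separated the groups without overlap, against 6.73% of all genes, and IL27ra KO replicate 4 lay within or above the WT range for every one of them. In IL27ra KO replicates 1 to 3, however, Klrd1, Klrc1, Klrc2 and Cd160 each lay below the lowest WT library, which is 4 of 8 genes against 6.2% of all genes. Replicate 4 was set apart after these values had been seen. This count and the fits below without that library are therefore a description and not support.

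**Figure D1:**
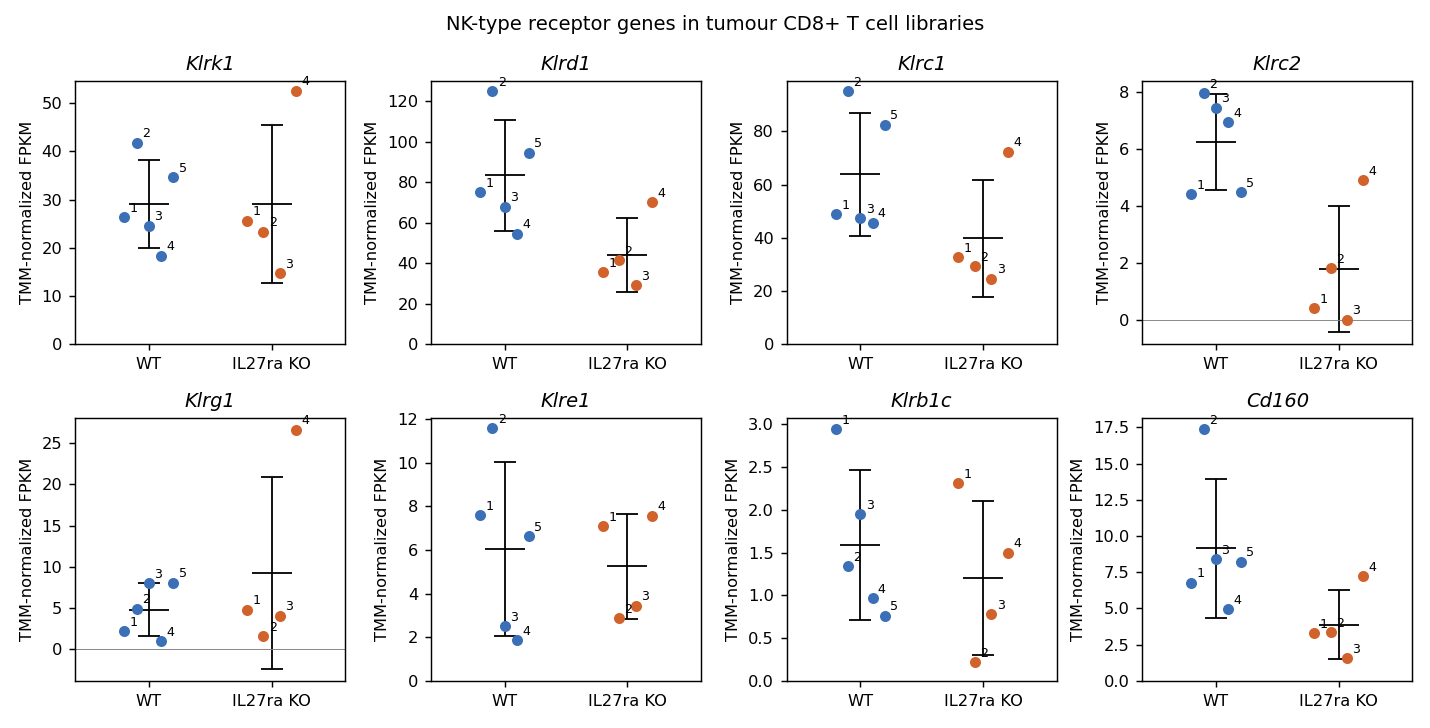
FPKM (linear axis, a scale of its own for each gene) of the 8 receptor genes in each WT library (5 points, blue) and each IL27ra KO library (4 points, orange), with bars for the group mean and SD. Klrd1, Klrc1, Klrc2 and Cd160 sit below every WT library in IL27ra KO replicates 1 to 3, and replicate 4 has the highest knockout value of those 4 genes.

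Klrd1, the shared CD94 chain, had the highest level of the 8 genes. Its FPKM was 75.01, 125.09, 67.88, 54.63 and 94.67 for WT replicates 1 to 5, whereas IL27ra KO replicates 1 to 4 had 35.57, 41.57, 29.07 and 70.12. Only IL27ra KO replicate 4 reached into the WT range. The means were 83.5 ± 27.4 FPKM (SD, n = 5) and 44.1 ± 18.1 FPKM (SD, n = 4), a log2 difference of -0.93 (SE 0.29) that missed the threshold (adjusted p = 0.102, limma). Without IL27ra KO replicate 4 the log2 difference was -1.17 and passed (adjusted p = 0.0226, limma).

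Klrc1, which encodes the inhibitory partner NKG2A, was likewise low in IL27ra KO replicates 1 to 3. Its FPKM was 48.91, 95.10, 47.29, 45.69 and 82.51 in WT, and 32.82, 29.34, 24.65 and 72.45 in IL27ra KO. Replicate 4 of the knockout exceeded 3 of the 5 WT libraries, while the other 3 knockout libraries lay below all of WT. The log2 difference was -0.73 (SE 0.32, adjusted p = 0.300, limma), and -1.06 without IL27ra KO replicate 4 (adjusted p = 0.0432, limma). The FPKM of Klrc1 was 0.652 to 0.872 times that of Klrd1 in the WT libraries and 0.706 to 1.03 times in the IL27ra KO libraries. On the log2 scale this ratio of inhibitory chain to shared chain differed by 0.20, within the spread of the libraries (two-sided exact permutation p = 0.175).

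**Figure D2:**
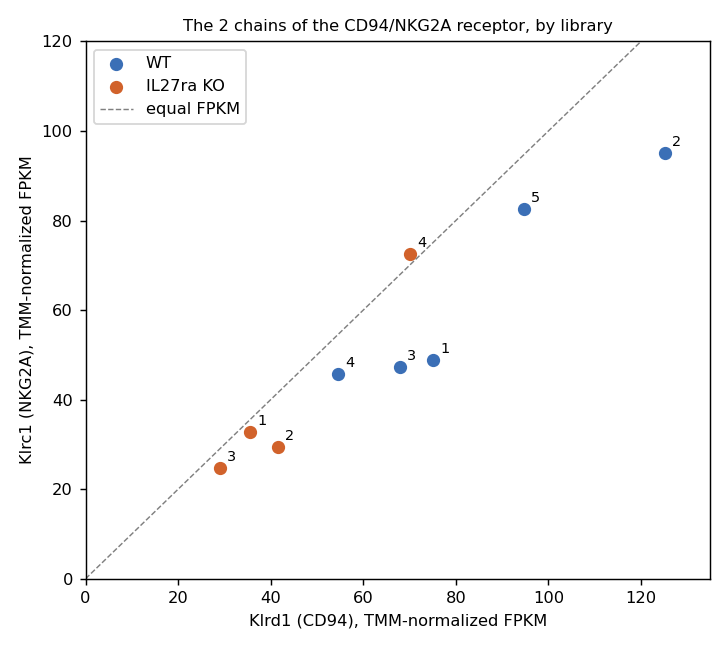
FPKM of Klrc1 (vertical axis) against FPKM of Klrd1 (horizontal axis), with 1 point per library, its replicate number beside it, WT in blue and IL27ra KO in orange. The dashed line marks equal FPKM. All points except IL27ra KO replicate 4, with 72.45 FPKM of Klrc1 and 70.12 FPKM of Klrd1, lie below that line, and IL27ra KO replicates 1 to 3 sit at the lower left.

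Klrc2, which encodes the activating partner NKG2C, was far less abundant than Klrc1. Its FPKM was 4.42, 7.97, 7.45, 6.95 and 4.49 in WT, and 0.41, 1.81, 0.00 and 4.90 in IL27ra KO. Only replicate 4 of the knockout reached the WT range, and replicate 3 was listed at 0. The means were 6.26 ± 1.68 FPKM (SD, n = 5) and 1.78 ± 2.22 FPKM (SD, n = 4), and the log2 difference was -1.69 (SE 0.41, adjusted p = 0.0342, limma). Leaving out any 1 of the other 8 libraries ended the call, with adjusted p-values up to 0.134, and it held without IL27ra KO replicate 4 (log2 difference -2.16, adjusted p = 0.0014). It was also lost with a pseudocount of 0.1 in place of 1 (adjusted p = 0.087) and with no filter on low values (adjusted p = 0.0978).

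Klrc1, Klrc2 and the neighbouring Klrc3, a further NKG2 chain, are close copies, so their reads can be assigned to the wrong gene. In the transcripts of GENCODE release M21, 40.3% of the stretches of 50 bases in Klrc1, 43.9% of those in Klrc2 and 41.1% of those in Klrc3 also occurred in another gene's transcript. Klrc3 did not pass the test, with a log2 difference of 0.09 (adjusted p = 0.911, limma). Its FPKM was 3.54, 2.72, 1.81, 3.21 and 3.23 in WT, and 5.47, 2.30, 2.43 and 2.88 in IL27ra KO. The highest value was in IL27ra KO replicate 1, where Klrc2 had 0.41 FPKM. Summed over the 3 genes, the FPKM was 56.87, 105.79, 56.55, 55.85 and 90.23 in WT and 38.7, 33.45, 27.08 and 80.23 in IL27ra KO. The log2 difference of the sum was -0.76 (two-sided exact permutation p = 0.0635). Klrc1 makes up most of the sum, which therefore says little about how reads were split between Klrc2 and Klrc3. Klrc2 and Klrc3 summed without Klrc1 were not tested. Klrc2 supplied 9.18% ± 3.50 (SD, n = 5) of this sum in WT and 3.14% ± 3.06 (SD, n = 4) in IL27ra KO. That difference of -6.04 percentage points had a two-sided exact permutation p of 0.0476 with overlapping groups, and p was 0.0286 to 0.107 when each library was left out in turn. The sum and the share were chosen after the data had been seen, as was the ratio of Klrc1 to Klrd1.

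The windows around the start sites of Klrc2, which passed the test, and of Klrc3, which did not, are shown because they are nearly identical. The sequences run from 250 bases before to 50 bases after a start site, on the minus strand, and come from RefSeq on GRCm38.p6, a later build than the mm9 named for these data. Of 2 Klrc2 windows in RefSeq, which overlap, the one that lines up with Klrc3 was picked; it is chr6:129660507-129660806, and the Klrc3 window is chr6:129643239-129643538. Capitals mark the bases that differ or have no partner in the alignment of the pair.
Klrc2: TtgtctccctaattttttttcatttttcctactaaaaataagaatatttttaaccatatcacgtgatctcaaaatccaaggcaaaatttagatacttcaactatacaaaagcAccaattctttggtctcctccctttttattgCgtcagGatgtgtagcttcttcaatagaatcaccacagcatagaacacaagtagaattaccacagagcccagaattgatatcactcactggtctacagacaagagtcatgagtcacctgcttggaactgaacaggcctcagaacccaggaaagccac
Klrc3: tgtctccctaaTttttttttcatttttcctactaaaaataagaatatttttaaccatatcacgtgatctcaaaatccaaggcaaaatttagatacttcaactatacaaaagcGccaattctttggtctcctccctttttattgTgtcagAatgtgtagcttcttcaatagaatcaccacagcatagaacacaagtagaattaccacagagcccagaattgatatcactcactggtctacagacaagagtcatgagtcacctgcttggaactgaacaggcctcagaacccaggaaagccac
Of 299 aligned bases, 296 were identical (99.0%). Both windows hold the Runx letters TGTGGT at bases 175 and 202 and the AP-1 letters TGACTCA at base 252, all read from the opposite strand and counted from the window's 5′ end; every motif was searched on both strands. Among all 32851 windows of the table, 16.8% hold TGTGGT and 5.20% hold TGACTCA. A match is a description of the letters and not evidence of binding.

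Klrk1, which encodes the activating receptor NKG2D, had nearly equal group means. Its FPKM was 26.35, 41.83, 24.63, 18.39 and 34.64 in WT, and 25.64, 23.35, 14.78 and 52.63 in IL27ra KO. The knockout libraries spanned the whole WT range, with replicate 3 below it and replicate 4 above it. The means were 29.2 ± 9.15 FPKM (SD, n = 5) and 29.1 ± 16.4 FPKM (SD, n = 4), and the log2 difference was -0.09 (SE 0.32, adjusted p = 0.934, limma). Hcst, the adaptor DAP10 through which NKG2D signals, had 74.1 ± 44.5 FPKM (SD, n = 5) in WT and 59.3 ± 22.9 FPKM (SD, n = 4) in IL27ra KO (log2 difference -0.17, adjusted p = 0.904, limma). The ratio of Klrk1 to Hcst was 0.467 on average in WT and 0.469 in IL27ra KO, with ranges of 0.300 to 0.707 and 0.369 to 0.569.

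By RefSeq's gene order on chromosome 6, Klrk1 lies between Klrd1 and the Klrc genes, so it sits among the genes that were low in IL27ra KO replicates 1 to 3. Its start window is shown for comparison with the Klrc2 window (chr6:129623815-129624114, minus strand, GRCm38.p6, RefSeq), with the Runx letters TGTGGT at base 122 and the AP-1 letters TGACTCA at base 268 in capitals.
Klrk1: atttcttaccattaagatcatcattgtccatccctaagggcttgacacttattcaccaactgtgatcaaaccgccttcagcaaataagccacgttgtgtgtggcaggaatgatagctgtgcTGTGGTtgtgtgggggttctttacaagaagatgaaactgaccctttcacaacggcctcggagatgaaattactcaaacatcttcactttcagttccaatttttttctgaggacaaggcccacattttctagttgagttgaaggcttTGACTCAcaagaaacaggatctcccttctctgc
Klre1 directly precedes Klrd1 in the same cluster with no protein-coding gene between them. Only Klrc3 lies between Klrk1 and Klrc2, while 19 protein-coding genes separate Klrb1c from Klre1 and 112 separate Klrg1 from Klrb1c. Cd160 is on chromosome 3. Of these neighbours, Klrd1 lay below all of WT in IL27ra KO replicates 1 to 3, whereas Klre1 lay inside the WT range.

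Klrg1, an inhibitory receptor and a marker of late effector cells, was high in a single library. Its FPKM was 2.12, 4.86, 7.97, 0.94 and 8.03 in WT, and 4.76, 1.51, 4.05 and 26.66 in IL27ra KO. IL27ra KO replicate 4 had more than any other library, and the remaining 3 knockout libraries lay inside the WT range. The log2 difference was 0.45 (SE 0.60, adjusted p = 0.809, limma) and turned to -0.23 without that library (adjusted p = 0.869). The same library had 304.52 FPKM of Gzma, a granzyme of cytotoxic cells, against 28.0 to 46.14 in the other knockout libraries and 6.91 to 35.61 in WT. It also had 6.00 FPKM of S1pr5, a sphingosine phosphate receptor of circulating effector cells, against at most 0.95 elsewhere. Gzma and S1pr5 were singled out after their values were seen.

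Klre1, a receptor that pairs with other lectin-like chains, and Klrb1c, which encodes the NK receptor NKR-P1C, were low and variable. Klre1 had 7.59, 11.58, 2.50, 1.87 and 6.64 FPKM in WT and 7.09, 2.88, 3.45 and 7.57 FPKM in IL27ra KO, with all knockout libraries inside the WT range. Its log2 difference was -0.05 (SE 0.41, adjusted p = 0.978, limma). Klrb1c had 2.94, 1.34, 1.95, 0.97 and 0.76 FPKM in WT and 2.31, 0.22, 0.78 and 1.50 FPKM in IL27ra KO. The groups overlapped, and the log2 difference was -0.27 (SE 0.32, adjusted p = 0.775, limma). Of the stretches of 50 bases in the Klrb1c transcript, 18.1% also occurred in another gene's transcript, so a part of its reads may be shared.

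Cd160, a receptor held in the membrane by a lipid anchor, had a pattern close to that of Klrd1. Its FPKM was 6.79, 17.37, 8.41, 4.93 and 8.22 in WT, and 3.30, 3.38, 1.57 and 7.23 in IL27ra KO. All knockout libraries except replicate 4 lay below all of WT, and WT replicate 2 was far above the other libraries. The means were 9.14 ± 4.81 FPKM (SD, n = 5) and 3.87 ± 2.39 FPKM (SD, n = 4), with a log2 difference of -1.07 (SE 0.35, adjusted p = 0.119, limma). Without IL27ra KO replicate 4 it was -1.37 and passed (adjusted p = 0.0286, limma). Tnfrsf14, which encodes its ligand HVEM, had 7.94 ± 2.66 FPKM (SD, n = 5) in WT and 9.59 ± 1.91 FPKM (SD, n = 4) in IL27ra KO (log2 difference 0.29, adjusted p = 0.661, limma).

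RefSeq gives 2 start windows for Cd160, and the one shown is the only window of the receptor genes with the STAT letters TTCNNNGAA, here at base 17, which 8.30% of all windows hold. It lies at chr3:96814472-96814771 (minus strand, GRCm38.p6). Capitals mark these letters, the T-box letters TCACACC read from the opposite strand at base 62 (in 3.98% of all windows), and the Runx letters at base 150.
Cd160: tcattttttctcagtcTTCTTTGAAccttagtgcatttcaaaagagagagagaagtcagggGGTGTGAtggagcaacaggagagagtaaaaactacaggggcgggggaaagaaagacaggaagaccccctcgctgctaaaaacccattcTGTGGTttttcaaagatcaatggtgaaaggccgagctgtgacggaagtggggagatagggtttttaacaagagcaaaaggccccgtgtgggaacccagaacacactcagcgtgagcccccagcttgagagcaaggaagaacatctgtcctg
The other Cd160 window holds the Runx letters alone, as does the Klrc1 window. Windows were found for 6 of the 8 receptor genes; Klrd1 and Klrg1 had no entry.

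Leaving out IL27ra KO replicate 4 changed the outcome for the receptors more than any other single library. Without it Klrd1, Klrc1, Klrc2 and Cd160 were all lower, which is 4 of 8 genes against 1.79% of all genes tested, and all 8 differences were below 0. Replicate 4 held the highest knockout value of each of these 4 genes, so leaving it out lowers their knockout means by construction. With any other single library left out, 0 of the 8 genes were called. With weights that let limma count deviating libraries less, the same 4 genes were lower against 3.3% of all genes: the log2 differences were -0.99 for Klrd1 (adjusted p = 0.0102), -0.86 for Klrc1 (adjusted p = 0.0432), -1.87 for Klrc2 (adjusted p = 0.0066) and -1.11 for Cd160 (adjusted p = 0.0200). Without the library labelled WT replicate 2, whose Il27ra level lay inside the knockout range, 0 of the 8 genes were called (3 at an unadjusted p under 0.05, limma), against 1.41% of all genes called lower. The log2 differences in that fit were -0.77 for Klrd1, -0.57 for Klrc1, -1.60 for Klrc2 and -0.83 for Cd160. The library labelled WT replicate 2 had the highest level of Klrd1, Klrc1, Klrc2 and Cd160 of all 9.

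**Figure D3:**
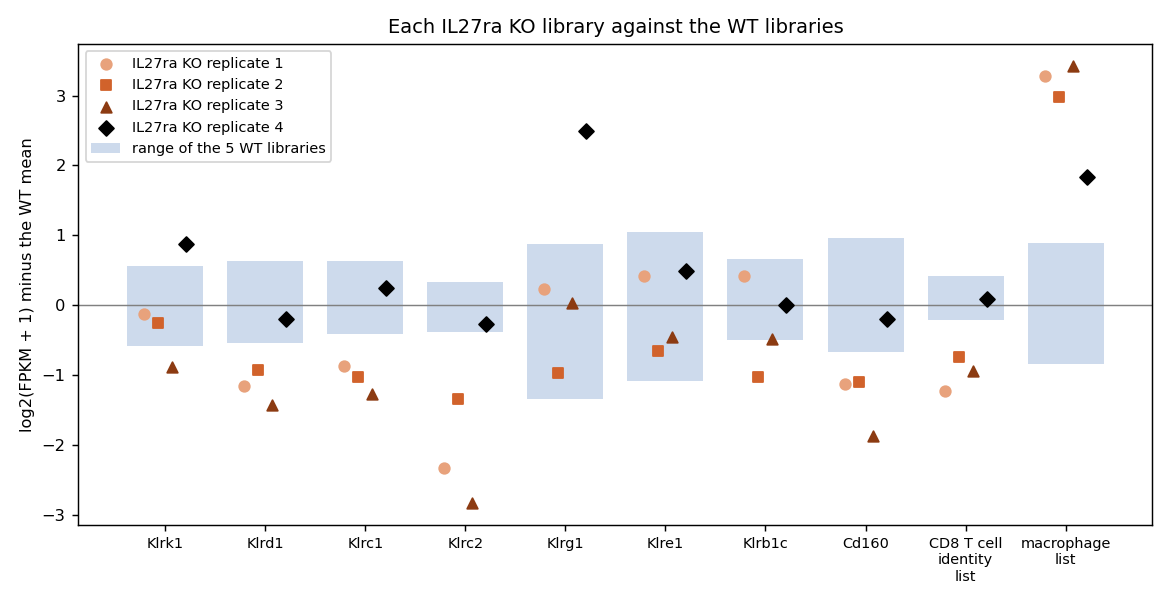
Log2 difference (vertical axis, on the log2(FPKM + 1) scale) of each IL27ra KO library from the WT mean for the 8 receptor genes, the mean of the CD8 T cell identity genes and the mean of the macrophage markers, with blue bands for the range of the 5 WT libraries. For Klrd1, replicates 1 to 3 lie between -1.43 and -0.93 and replicate 4 at -0.19. The identity genes lie between -1.22 and -0.74 in replicates 1 to 3 and at 0.10 in replicate 4.

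Because the identity genes were also low in IL27ra KO replicates 1 to 3, each receptor was set against their mean log2 level in the same library. For Klrd1, Klrc1 and Cd160 the relative levels of the groups overlapped and did not pass the test: the log2 differences of the relative level were -0.22 for Klrd1 (two-sided exact permutation p = 0.206), -0.03 for Klrc1 (p = 0.825) and -0.37 for Cd160 (p = 0.222). Klrc2 was lower relative to the identity genes, with relative log2 levels of -3.98 to -3.16 in WT and -5.42 to -3.90 in IL27ra KO, a difference of -0.99 (two-sided exact permutation p = 0.0317, and 0.0286 to 0.0714 with 1 library left out, passing when that was WT replicate 5 or IL27ra KO replicate 4). With a pseudocount of 5 this difference was -0.12 (exact permutation p = 0.492), and most Klrc2 values lie near or below 5 FPKM. With libraries scaled to the identity genes, the median log2 difference of all genes was 0.61. Klrk1 was higher relative to the identity genes by a like amount, 0.61 (two-sided exact permutation p = 0.0476). This missed 0.05 with a pseudocount of 0.1 (exact permutation p = 0.0635), with the same total (p = 0.0635), with quantile normalization (p = 0.0794) and in 8 of 9 cases with 1 library left out (p of 0.0357 to 0.107, passing without IL27ra KO replicate 3). The relative differences of Klrg1, Klre1 and Klrb1c were 1.15, 0.66 and 0.43, with exact permutation p-values of 0.127, 0.270 and 0.413. These are 8 comparisons, without adjustment for their number, and the smallest p that 5 against 4 libraries allow is 0.0159.

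All genes were also fitted with each library scaled to the mean log2 level of the identity genes. Klrc2 was the only receptor called lower (log2 difference -1.35, adjusted p = 0.0265, limma), 1 of 8 against 0.464% of all genes. Klrk1 was at 0.58 (adjusted p = 0.150), Klrg1 at 0.99 (adjusted p = 0.116), Klrd1 at -0.23, Klrc1 at -0.04 and Cd160 at -0.50. This scaling moved the median log2 difference of all genes to 0.61, so Klrk1 lay near that median and the CD94 chains below it. Whether the share of T cell RNA in a library accounts for the levels of Klrd1, Klrc1 and Cd160 was not tested.

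**Figure D4:**
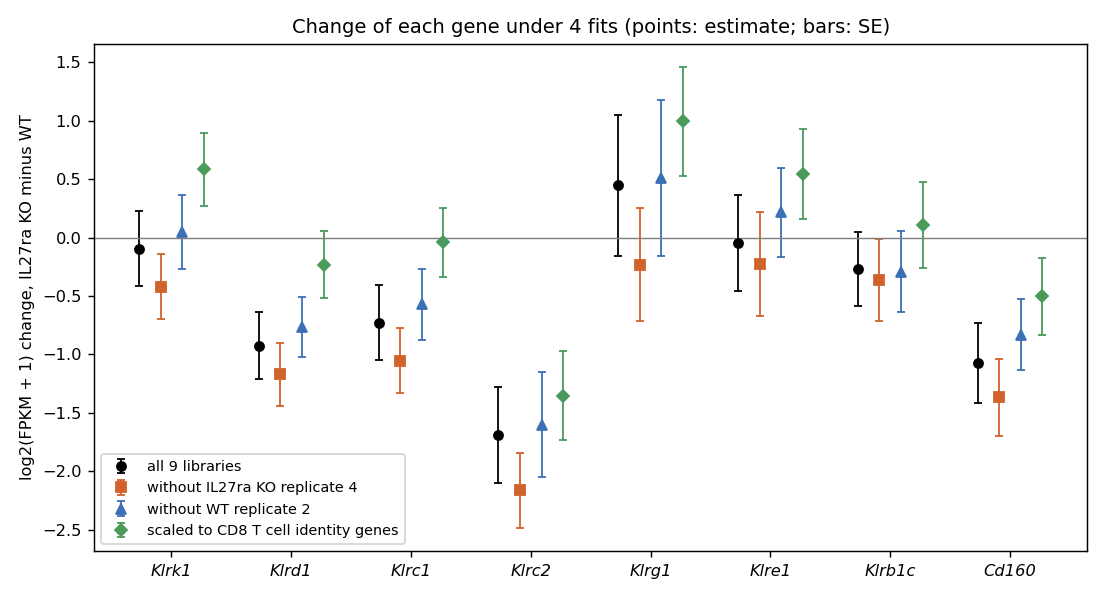
Log2 difference, IL27ra KO minus WT, of the 8 receptor genes for all 9 libraries (black), without IL27ra KO replicate 4 (orange), without the library labelled WT replicate 2 (blue) and with each library scaled to the identity genes (green), on the log2(FPKM + 1) scale, with bars for the SE. Klrc2 is lowest in each of these 4 fits, from -2.16 without IL27ra KO replicate 4 to -1.35 after scaling, and Klrk1 runs from -0.42 to 0.58.

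FPKM is scaled to transcript length, so levels can be ordered between genes. The median FPKM over the 9 libraries was 67.9 for Klrd1, 47.3 for Klrc1 and 25.6 for Klrk1, then 6.79 for Cd160, 6.64 for Klre1, 4.76 for Klrg1, 4.49 for Klrc2 and 1.34 for Klrb1c. Klrd1 exceeded Klrc1 in 8 of 9 libraries, and Klrc1 exceeded Klrk1 and Klrk1 exceeded Cd160 in 9 of 9. From Cd160 to Klrc2 each gene exceeded the next in 5 of 9 libraries, so those 4 could not be ordered beyond the spread between libraries.

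NK cells carry the same receptors, and their markers were read in the same libraries. Ncr1, the NK receptor NKp46, was at 0 in 6 of 9 libraries and at most 0.58 FPKM, and Klra8 and Klra4, receptors of the Ly49 family, were at most 0.13 and 0.46 FPKM. Other Ly49 genes were detected: Klra6 had 0 to 17.44 FPKM in WT and 0 to 2.58 FPKM in IL27ra KO, Klra1 0.29 to 7.46 and 0 to 0.35 FPKM, and Klra9 0.20 to 5.76 and 0 to 2.82 FPKM, and these did not pass the test (adjusted p = 0.183, 0.0934 and 0.901, limma). Of the 10 tested NK markers, 3 passed the test (7 at an unadjusted p under 0.05, limma), and 5 of the 10 differences were below 0. The 3 were Fcgr3, Fcer1g and Tyrobp, higher in IL27ra KO, which macrophages also express. Which cells made their transcripts was not tested. Gzma, high in IL27ra KO replicate 4, is on this list too (log2 difference 2.03, adjusted p = 0.0923, limma). Il18rap, Cd7 and Txk, further genes of the list, had 10.46 to 51.3, 15.86 to 45.53 and 9.42 to 23.28 FPKM over all libraries. They did not pass the test (adjusted p = 0.325, 0.928 and 0.437, limma). The NK marker list summed to 113.82 to 233.06 FPKM in WT and 310.14 to 505.79 FPKM in IL27ra KO. Of 8 tested further lectin-like NK receptors 0 passed (4 at an unadjusted p under 0.05, limma). Klra7, also of the Ly49 family, had 3.79 to 23.41 FPKM in WT and 2.70 to 6.08 FPKM in IL27ra KO (log2 difference -1.07, adjusted p = 0.231, limma). Of the CD4 T cell markers, Cd4 was at most 0.45 FPKM. Foxp3 had 0 to 5.53 FPKM in WT and 0.52 to 1.07 FPKM in IL27ra KO (log2 difference -0.90, adjusted p = 0.369, limma). Zbtb7b had 0.31 to 1.16 FPKM in WT and 1.25 to 1.89 FPKM in IL27ra KO, without overlap (log2 difference 0.63, adjusted p = 0.157, limma).

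The ligands and partners of the receptors differed in few cases. H60b, a ligand of NKG2D, was the 1 of 8 tested ligands that passed and was higher in IL27ra KO. Its FPKM was 3.34, 3.70, 4.80, 4.92 and 3.06 in WT, and 8.43, 13.22, 13.24 and 18.45 in IL27ra KO. The groups did not overlap, the log2 difference was 1.50 (SE 0.22, adjusted p = 0.0021, limma), and the call held in all alternatives run. H2-T23, which encodes the ligand of CD94/NKG2A, had 106.2 ± 58.0 FPKM (SD, n = 5) in WT and 107 ± 19.0 FPKM (SD, n = 4) in IL27ra KO (log2 difference 0.17, adjusted p = 0.885, limma). Ulbp1, a further ligand gene of NKG2D, had 5.08 ± 1.87 FPKM (SD, n = 5) in WT and 2.64 ± 1.04 FPKM (SD, n = 4) in IL27ra KO (log2 difference -0.72, adjusted p = 0.212, limma). Which cells in the libraries made H60b was not tested. The macrophage markers were also higher in IL27ra KO, with a mean log2 level 1.83 above the WT mean in IL27ra KO replicate 4 and 2.97 to 3.43 above it in replicates 1 to 3. H60b itself was highest in replicate 4, where these markers were lowest among the knockout libraries.

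**Figure D5:**
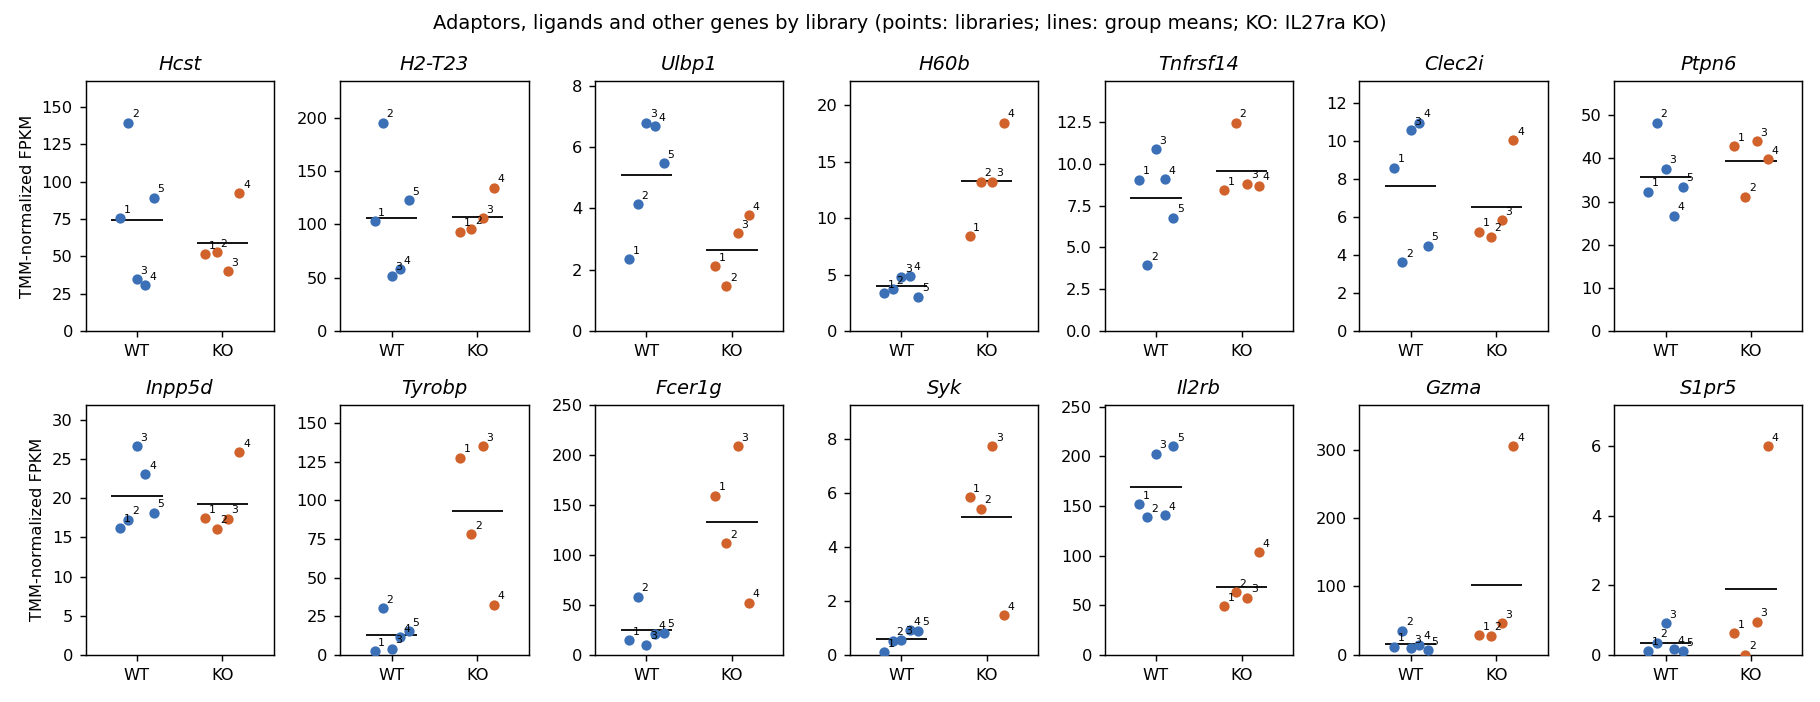
FPKM (linear axis from 0, a scale of its own for each gene) of 14 ligand, adaptor and other genes, with 1 point per library, its replicate number beside it, and lines for the group means; WT is blue and IL27ra KO orange. H60b separates the groups, with 3.06 to 4.92 FPKM in WT and 8.43 to 18.45 FPKM in IL27ra KO, while H2-T23 overlaps.

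Of 17 tested adaptors and signalling genes, 3 were higher, 1 was lower and 13 did not pass. The adaptors Tyrobp (log2 difference 3.01, adjusted p = 0.0082, limma) and Fcer1g (2.42, adjusted p = 0.0073) and the kinase Syk (1.82, adjusted p = 0.0059) were higher. Macrophages, whose markers were also higher in IL27ra KO, can express all 3. Which cells in the libraries made these transcripts was not tested. Sh2d1a, the adaptor SAP of the SLAM receptors, was lower, with 40.7 ± 14.7 FPKM (SD, n = 5) in WT and 17.2 ± 8.48 FPKM (SD, n = 4) in IL27ra KO (log2 difference -1.24, adjusted p = 0.0424, limma), and its call ended in 12 of 19 alternatives, among them leaving out any 1 library other than WT replicate 4 or IL27ra KO replicate 4, with adjusted p-values up to 0.178. The phosphatases that inhibitory receptors recruit had log2 differences of 0.16 for Ptpn6, -0.19 for Ptpn11 and -0.07 for Inpp5d, with adjusted p-values of 0.808, 0.711 and 0.924.

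Interleukin-15 signals in CD8+ T cells through the beta chain Il2rb and is known to raise NK receptors on them. Il2rb was the 1 of 8 genes of the interleukin 2 and 15 receptor pathway that passed, and all 8 differences were below 0. It had 168.7 ± 34.7 FPKM (SD, n = 5) in WT and 68.3 ± 24.0 FPKM (SD, n = 4) in IL27ra KO without overlap, a log2 difference of -1.33 (adjusted p = 0.0072, limma). The call was lost when libraries were scaled to the same total (adjusted p = 0.0503) or to the identity genes (adjusted p = 0.113), and with a replicate block. It held whichever library was left out. Among 9 effector genes, the pore protein gene Prf1 (-1.99, adjusted p = 0.0047) and the transcription factor gene Prdm1 (-1.30, adjusted p = 0.0159) were lower, and Zeb2 (1.17, adjusted p = 0.0377), also expressed by macrophages, was higher. Which cells made the Zeb2 transcripts was not tested. Leaving out IL27ra KO replicate 1 ended the Prdm1 call (adjusted p = 0.071), as did scaling to the same total (adjusted p = 0.0716) and to the identity genes (adjusted p = 0.118), and a replicate block. For Zeb2, 6 libraries (WT replicates 1, 2 and 5, IL27ra KO replicates 1, 2 and 3) each ended the call when left out, with adjusted p-values up to 0.163. A pseudocount of 0.1 (adjusted p = 0.0514), no filter (adjusted p = 0.0892) and a replicate block ended it too. Of 9 memory genes 0 passed (2 at an unadjusted p under 0.05, limma), with a median log2 difference of 0.31. The transcription factor genes Tbx21, of the effector list, and Eomes, of the memory list, had log2 differences of -0.63 (adjusted p = 0.378) and -0.75 (adjusted p = 0.299).

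Likeness to each receptor was measured as Pearson's r of log2(FPKM + 1) over the 9 libraries. It is a description only, since all genes of a library share its depth, genotype and T cell content. Klrd1 was most like Cst7 (r = 0.991), Nkg7 (r = 0.990) and Sytl3 (r = 0.984), of which Nkg7 encodes a protein of cytotoxic granules and Cst7 an inhibitor of granule proteases. Klrc1 was most like Ifng (r = 0.980), the interferon gamma gene, Grap (r = 0.975) and H2-Q7 (r = 0.972). Cd160 was most like Sh2d1a (r = 0.972), Klrd1 itself (r = 0.969) and Cd6 (r = 0.963), and Klrc2 most like Dcaf5 (r = 0.969), Gimap4 (r = 0.955) and Pan2 (r = 0.945). The genes nearest to Klrk1 were Lypla2, Rsbn1 and Trmt11 (r = 0.934 to 0.965), and those nearest to Klrg1 were Armc7, Ing5 and Cercam (r = 0.911 to 0.958). Mrpl22, Yipf1 and Ddrgk1 were nearest to Klre1 (r = 0.940 to 0.956), and Arl6ip6, Tnrc6a and Dcp1b to Klrb1c (r = 0.875 to 0.895). Against the mean of the identity genes, r was 0.941 for Klrd1, 0.912 for Klrc1, 0.897 for Cd160 and 0.896 for Klrc2, but 0.658 for Klrk1, 0.353 for Klre1, 0.330 for Klrg1 and 0.107 for Klrb1c. Of these 24 nearest genes, 7 stayed among the nearest 3 without IL27ra KO replicate 4.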

How the data were processed

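Lysates of bulk CD8+ T cells were turned into SMART-Seq 2 libraries, per the labels. Without molecular identifiers, PCR copies enter the values as fragments of their own. The authors deposited FPKM per gene, computed with RSEM and normalized by TMM, per the labels. TopHat and RSEM and the build mm9 are among the entries of the submitters' processing notes, with no version or role. RSEM divides reads that match several genes, so near-identical genes can trade values.

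From the deposited FPKM, log2(FPKM + 1) was compared between 5 WT and 4 IL27ra KO libraries where a gene's mean reached 1 FPKM, using limma 3.58.1 in R 4.3.3 (eBayes with trend) and Benjamini-Hochberg adjustment over 10374 genes at 0.05. Differences on this scale understate those of low genes. For single values a two-sided exact permutation test over libraries was used. Depth, with the TMM scaling included, was estimated from the spacing of low FPKM in 4760 genes with 1 transcript in GENCODE release M21, where 62.5% to 66.7% of values fell within 0.1 of a whole multiple (20% would if evenly spread). The fit was tested on simulated data with the mean and spread of each gene, each gene drawn on its own, and 200 genes changed. It called 43.5%, 93.5% and 98.5% of the changed genes at log2 sizes of 1, 2 and 3. Of its calls, 3.33%, 3.61% and 7.08% were false. A difference near 1 could thus often miss the threshold. The table has 0 columns of other samples.

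The receptor genes and all lists were chosen with earlier results of these data known. Named genes are the 8 receptors, the 3 tested genes most like each of them, up to 4 genes past the threshold from each list by smallest p, Il27ra, and the direct partners Hcst, Tyrobp, H2-T23, Tnfrsf14, Ptpn6, Ptpn11 and Inpp5d. Klrc3, Klra1, Klra4, Klra6, Klra7, Klra8, Klra9, Ncr1, Il18rap, Cd7, Txk, Cd4, Foxp3, Zbtb7b, Ulbp1, Tbx21, Eomes, Gzma and S1pr5 fall outside this rule. Their values had been seen when they were picked. Marker lists of CD8 T cell identity and of NK, NKT and gamma delta T, CD4 T, macrophage, B and melanoma cells were read beside the receptors. As alternatives, the pseudocount was 0.1 or 5, the filter was dropped or set at 5 FPKM, libraries were rescaled by quantiles, by total or by the identity genes, the fit was robust or weighted or had a replicate block, and each library was left out in turn.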

Additional observations from a re-analysis of the deposited data

Results flagged for a closer look

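In 52 groups of 4 or 5 libraries, 9 had a library whose gap to its neighbour was wide for the range of the group. Chance flags about 1 in 20 groups, and the groups share libraries, so the 9 are not independent. IL27ra KO replicate 4 accounted for 5 of them: Klrc1 at 72.45 FPKM (next 32.82), Klrg1 at 26.66 (next 4.76), the phosphatase gene Inpp5d at 25.88 (next 17.46), Gzma at 304.52 (next 46.14) and S1pr5 at 6.00 (next 0.95). The library labelled WT replicate 2 accounted for 3: Cd160 at 17.37 FPKM (next 8.41), the adaptor gene Fcer1g at 58.22 (next 22.12) and Gzma at 35.61 (next 15.05). In IL27ra KO replicate 2, Tnfrsf14 stood at 12.45 FPKM (next 8.81).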

How the results depend on the processing

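Genes called numbered 440 (325 higher, 115 lower) and 219 with a filter at 5 FPKM, 1228 with scaling to the identity genes (1179 higher, 49 lower), 974 with library weights, and 227 to 639 when 1 library was left out. Scaling to the same total gave 544 higher and 65 lower, and quantile normalization 291 and 167. The median log2 difference of all genes was 0.29 with the same total and 0.61 with identity scaling. Of the 8 receptors, 1 was called lower, against 0 with a pseudocount of 0.1, 0 with no filter, 0 with a filter at 5 FPKM (which dropped Klrc2 and Klrb1c), 2 with quantile normalization, 4 with weights, and 0 to 4 when 1 library was left out. Over the 6 pathway lists 9 genes were called, 20 with weights and 6 to 16 with 1 library left out.

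Some differences that had not passed the test changed sign, and the cause was not tested. With the same total and with identity scaling, the log2 differences were 0.22 and 0.58 for Klrk1, 0.21 and 0.55 for Klre1, 0.16 and 0.53 for Hcst, 0.095 and 0.43 for Ptpn11, and 0.24 and 0.60 for Inpp5d; Klrb1c was at 0.11 with identity scaling. With 1 library left out, they ran from -0.42 to 0.17 for Klrk1, -0.32 to 0.22 for Klre1, -0.23 to 0.92 for Klrg1, -0.42 to 0.11 for Hcst, -0.047 to 0.43 for H2-T23 and -0.22 to 0.029 for Inpp5d. Relative to the identity genes, Cd160 was at 0.0021 with a pseudocount of 5, and Klrc1 ran from -0.15 to 0.075 with 1 library left out.

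Libraries with the same replicate number did not deviate together (r from -0.147 to 0.0027). The labels state no pairing, and these correlations cannot decide whether there was one. With a replicate block over 4 pairs, 273 genes were called, Klrc2 among them, and Klre1 was at 0.035. In that fit Il2rb, Prdm1, Zeb2 and Sh2d1a did not pass (adjusted p = 0.0525, 0.0589, 0.0763 and 0.107). At 5 against 4 libraries, genes of a few FPKM rest on few fragments.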
